A study of Mus musculus with 19 samples.

Results

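Glutathione peroxidases, superoxide dismutases and catalase are the enzymes that dispose of superoxide and peroxides, and the rows of 10 of them were followed in obstructed mouse kidneys. They were Gpx1, Gpx2, Gpx3, Gpx4, Gpx7, Gpx8, Sod1, Sod2, Sod3 and Cat, taken by gene name from a table of 54532 genes, and the epididymal or olfactory Gpx5 and Gpx6 were left out. All 10 names were found, each in 1 row. RNA came from the whole obstructed kidney of 19 male C57BL/6J mice, aged 8 to 9 weeks, on day 12 of unilateral ureteral obstruction (UUO), a model in which 1 ureter is tied off. The 4 groups were WT with PBS (n = 5), WT with rCD5L (n = 5), CD5L KO with PBS (n = 4) and CD5L KO with rCD5L (n = 5). Recombinant CD5L, a protein made in CHO-S hamster cells, was injected intraperitoneally at 0.5 mg per mouse every day, and PBS was the vehicle. CD5L is a protein secreted by macrophages, and how the KO line was made is not given in the sources used here. By the labels every mouse of the 4 groups was obstructed, so the data hold no comparison with an unobstructed kidney, and a whole kidney mixes all its cell types. Fewer cells of a type and less RNA per cell cannot be told apart in such samples.

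Superoxide dismutases turn superoxide into hydrogen peroxide. Sod1 holds copper and zinc and works in the cytosol, Sod2 holds manganese and works in the mitochondrial matrix, and Sod3 is the copper and zinc enzyme outside the cell. Hydrogen peroxide is then broken down by catalase in peroxisomes and by glutathione peroxidases, which use glutathione as the reductant. Gpx1 is the general cytosolic and mitochondrial form, Gpx2 is the form of the gut epithelium, Gpx3 is secreted into plasma and is made largely by the proximal tubule, and Gpx4 reduces lipid hydroperoxides within membranes and thereby holds back ferroptosis. Gpx7 and Gpx8 sit in the endoplasmic reticulum.

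The glutathione peroxidases fall into 2 kinds by 1 codon, which is shown because it separates the members that depend on selenium supply from those that do not. The lines give 27 bases of the coding sequence of GRCm38, 5′ to 3′ on the coding strand, with the catalytic codon in capitals. In the first 4 genes it is TGA, annotated as selenocysteine, and in the last 2 it is the cysteine codon that aligned with it.
Gpx1: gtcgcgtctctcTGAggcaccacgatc
Gpx2: gtggcgtcactcTGAggaacaactacc
Gpx3: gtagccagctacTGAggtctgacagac
Gpx4: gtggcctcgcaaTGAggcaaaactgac
Gpx7: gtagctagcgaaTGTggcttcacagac
Gpx8: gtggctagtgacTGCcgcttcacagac

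The codons lie in coding exons at chr9:108339451-108339453 (plus strand) for Gpx1, chr12:76795256-76795258 (minus) for Gpx2, chr11:54907256-54907258 (plus) for Gpx3, chr10:80054737-80054739 (plus) for Gpx4, chr4:108403430-108403432 (minus) for Gpx7 and chr13:113045661-113045663 (minus) for Gpx8. The translated protein of Gpx2 was 63.2% identical to that of Gpx1, Gpx3 was 50.3%, Gpx4 40.6%, Gpx7 39.8% and Gpx8 30.8%. The dismutases and catalase lie at chr16:90220754-90226329 (Sod1, plus strand), chr17:13006846-13040063 (Sod2, plus), chr5:52363791-52371418 (Sod3, plus) and chr2:103453849-103485160 (Cat, minus). The bodies of Gpx2, Gpx8 and Sod1 overlap a gene on the other strand, without an overlap of exons. In end-to-end alignments of the dismutases, Sod1 and Sod3 shared 42.2% of 147 aligned residues. Sod1 and Sod2 shared 31.4% of 121, and Sod2 and Sod3 23.3% of 202. Such an alignment can be made of any 2 proteins, so these values do not show that the proteins are related.

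The total count per kidney lay between 17917491 and 23847090. Cd5l, the deleted gene, had 0 counts in all 9 CD5L KO kidneys, which allows up to 3 counts in each, and 3 to 15 counts in the WT kidneys. Kidneys 3 and 4 of the CD5L KO mice with rCD5L stood apart in TMM factor, and kidney 4 also in cell type markers. The summed level of 16 proximal tubule markers was 71805 CPM (counts scaled to a common library size with TMM factors) in kidney 4, 11268.5 in kidney 3 and between 4472 and 10739 in the other 17 kidneys, while the 10 macrophage markers summed to 819 CPM in kidney 4 against at least 1991 elsewhere. On the mean log2 CPM of these proximal tubule markers kidney 3 (7.61) lay within the range of the other kidneys (WT with PBS 3 was at 7.94). The TMM factor was 0.682 in kidney 4, 0.874 in kidney 3 and at least 0.968 in the others. All marker genes of the proximal tubule, fibroblast and myofibroblast, macrophage and endothelial lists were counted in at least 1 kidney. Nothing in the labels separates kidneys 3 and 4 from the rest of their group, and whether their obstruction was complete, or kidney 4 is the kidney its label names, was not tested. Group comparisons that use CD5L KO mice given rCD5L are therefore given with and without these kidneys. Correlations across the kidneys were recomputed without kidney 4 of that group, alone or with another kidney. Kidney 3 of that group stayed in all of these correlations.

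Gpx3 was the most abundant of the 10 enzymes in every group, and Gpx2 was close to undetected. Levels between genes are compared per length, as the deposited FPKM (fragments scaled to gene length and library size). In WT mice given PBS, Gpx3 reached 2379 ± 611 FPKM (SD, n = 5) and Gpx1 765 ± 62.1. Gpx4 followed at 217 ± 25.5 FPKM and Cat at 88.0 ± 9.75. Sod1 at 50.5 ± 4.60 and Sod3 at 49.0 ± 5.22 FPKM overlapped, and so did Gpx7 at 13.7 ± 1.85 and Sod2 at 9.80 ± 0.963. Gpx8 stood between these pairs at 41.6 ± 2.40 FPKM. Every other pair of neighbours in this order was separated without overlap among the 5 kidneys.

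The FPKM of Sod1 depends on the length it was divided by. The table gives Sod1 a gene length of 3970 bases, while its principal coding transcript has 641. Per length of that transcript, a setting chosen after seeing the data, Sod1 came to 313 ± 28.5 in WT mice given PBS, a range that overlapped Gpx4 (390 ± 45.8) and lay above Cat, whose length was the same either way. Sod2 (16.7 ± 1.64) then stood above Gpx7, with overlapping ranges, and Sod3 and Gpx8 also overlapped.

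**Figure D1:**
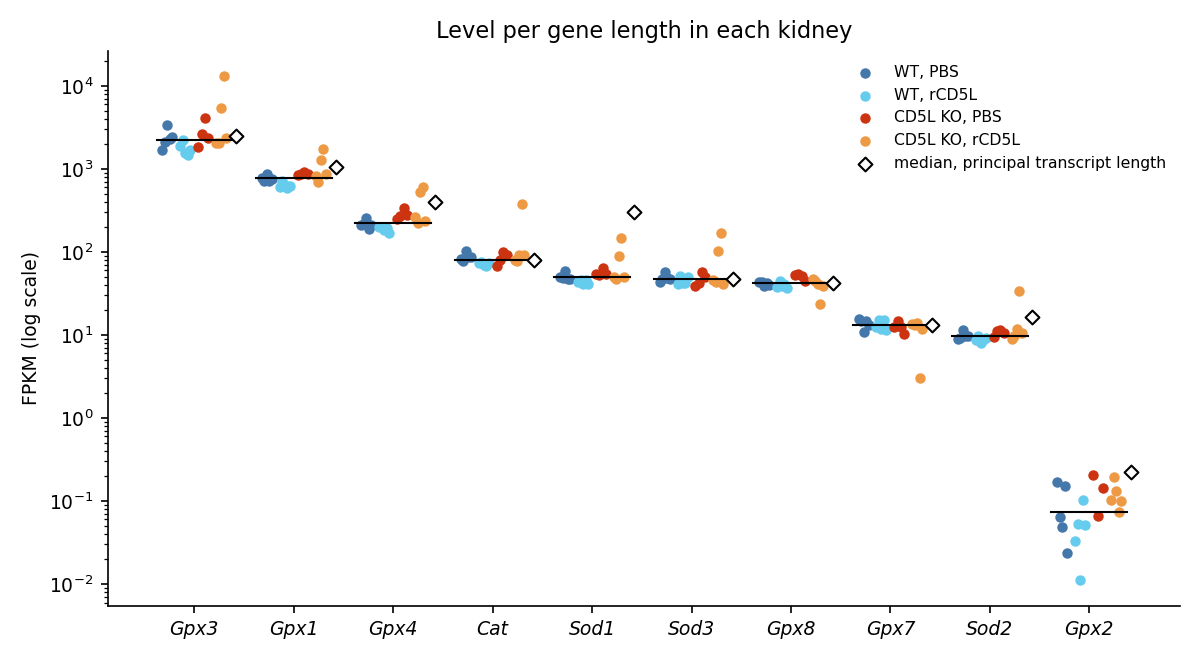
FPKM (log axis) of each enzyme in each of 19 kidneys, coloured by group, with the median as a black line and the median recomputed with the principal transcript length as an open diamond. Gpx3 leads and Gpx2 trails, the Gpx2 value of 0 in 1 kidney cannot be drawn on a log axis, and the diamond of Sod1 lies well above its points.

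Gpx2 had 0 to 18 counts per kidney. With PBS it stood at 0.663, 0.250, 0.189, 0.590 and 0.0921 CPM in WT kidneys and at 0.812, 0.260, 0 and 0.568 in CD5L KO kidneys. In WT mice given rCD5L the values were 0.127, 0.209, 0.0429, 0.396 and 0.198 CPM, and in CD5L KO mice given rCD5L they were 0.402, 0.773, 0.529, 0.306 and 0.393. It passed the filter on low counts in 3 of the 5 comparisons and no difference was detectable at this depth. The other 9 enzymes passed in all 5.

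The first comparison asked how the obstructed kidney differed without CD5L, with both genotypes given PBS. Gpx4 and Gpx8 were higher in CD5L KO kidneys, 2 of the 10 enzymes, where 5.13% of the 17579 genes tested were called higher and 10.5% in either direction. Gpx1 was above every WT kidney in all 4 CD5L KO kidneys, as 7.35% of genes were, but missed the threshold. The other 7 did not pass it. The enzymes had a median log2 fold change of 0.19 against -0.0046 over all genes tested, with 7 of 10 above 0, where 49.3% of genes were.

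Gpx4, the lipid hydroperoxide reductase, stood at 436, 449, 542, 399 and 444 CPM in WT kidneys and at 531, 569, 729 and 597 CPM in CD5L KO kidneys. In 3 of 4 CD5L KO kidneys it was above every WT kidney. The log2 fold change was 0.41 ± 0.10 (SE) with an adjusted p of 0.0235 (edgeR's quasi-likelihood test, Benjamini-Hochberg). Gpx4 lies at chr10:80047166-80056439 of GRCm38 on the plus strand, and a near-identical copy, Gpx4-ps2, matched 762 bases of its transcript at 99.7%. That copy was counted in a row of its own, at 13.7% to 16.5% of the size of the Gpx4 count over all 19 kidneys. This ratio overlapped between the groups. With the counts of the copy added, the log2 fold change of Gpx4 was 0.41 with an edgeR adjusted p of 0.0231.

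Gpx8, a peroxidase of the endoplasmic reticulum at chr13:113042753-113046410 on the minus strand, stood at 55.5, 55.6, 48.9, 54.0 and 50.5 CPM in WT kidneys. In CD5L KO kidneys it stood at 67.9, 70.1, 65.7 and 57.4 CPM, so the groups did not overlap, as for 7.35% of genes in this direction. The log2 fold change was 0.30 ± 0.068 (SE) with an edgeR adjusted p of 0.0183.

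Both calls depended on settings. Fold changes fell with gene length across all genes (Spearman's rho -0.277 over 17579 genes), and the rho of a kidney's deviations with gene length was between -0.221 and -0.124 in CD5L KO kidneys and between -0.0243 and 0.193 in WT kidneys given PBS. With an offset for length, Gpx4 was at 0.32 (edgeR adjusted p 0.0662) and Gpx8 at 0.15 (0.156), and in 1 fit of all 19 kidneys the adjusted p-values were 0.575 and 0.367. Leaving out kidney 3 of the CD5L KO mice, or kidney 2, 4 or 5 of the WT mice, took Gpx4 to adjusted p-values between 0.0522 and 0.0617. Leaving out kidney 1 or 2 of the CD5L KO mice took Gpx8 to 0.0553 or 0.0559.

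Gpx1 measured 1369.6, 1256, 1507, 1236 and 1330.0 CPM in WT kidneys and 1514, 1531, 1637 and 1539 CPM in CD5L KO kidneys. The groups just failed to overlap, as for 7.35% of genes in this direction. The log2 fold change of Gpx1 was 0.21 ± 0.066, with an edgeR adjusted p of 0.0659. It passed in 3 of 17 alternatives, among them DESeq2 (0.0164, with 14.2% of genes called) and the fit without kidney 3 of the WT mice (0.0209), with a range of 0.0164 to 0.766.

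Sod1 measured 244, 235, 282, 230.4 and 229 CPM in WT kidneys and 267, 262, 318 and 264 CPM in CD5L KO kidneys, a log2 fold change of 0.18 ± 0.078 (edgeR adjusted p 0.160). Kidney 3 of the CD5L KO mice was the only one that exceeded the WT range. Without kidney 3 of the WT mice the adjusted p of Sod1 was 0.0453, the lowest of its 17 alternatives (highest 0.868).

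Sod2 spanned 109 to 139 CPM in WT and 118 to 142 in CD5L KO kidneys, Sod3 199 to 262 against 181 to 263, and Gpx7 16.9 to 24.1 against 16.3 to 23.5, with overlap in each. Sod2 had a log2 fold change of 0.13 with a 95% interval of -0.03 to 0.30, and Sod3 one of -0.05 with an interval of -0.28 to 0.18. Cat stood at 257, 250.2, 329, 279 and 280.4 CPM in WT kidneys and at 219.8, 257, 321 and 293 CPM in CD5L KO kidneys, with a log2 fold change of -0.04 (interval -0.27 to 0.19). The sign of Sod3 and Cat turned when kidney 1 of the CD5L KO mice or kidney 3 of the WT mice was left out. Gpx3 (0.22, interval -0.25 to 0.70) and Gpx7 (-0.12, interval -0.38 to 0.14) overlapped between the groups, and Gpx3 came to -0.04 without kidney 3 of the CD5L KO mice, in which it measured 9258 CPM.

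Cell type markers differed in the same comparison. Of 10 fibroblast and myofibroblast markers, 6 were lower in CD5L KO kidneys (their summed level was 3198 to 4414 CPM against 4513 to 6808 in WT), and 3 of 7 endothelial markers were lower (539 to 607 CPM against 630 to 723). No proximal tubule marker of 16 was called (4954 to 10528 CPM against 5210.3 to 10739), and 1 of 10 macrophage markers was lower (1991 to 3255 CPM against 2204.3 to 2891). Erythroid markers, from cells rich in Cat, Gpx1 and Sod1, summed to 202 to 407 CPM in CD5L KO kidneys and 219 to 495 in WT, with none of 5 tested markers called. All 6 urothelial markers lay higher in CD5L KO kidneys (229 to 366 CPM against 26.5 to 191), with none called. The part of these cell types in the levels of Gpx4 and Gpx8 was not tested.

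**Figure D2:**
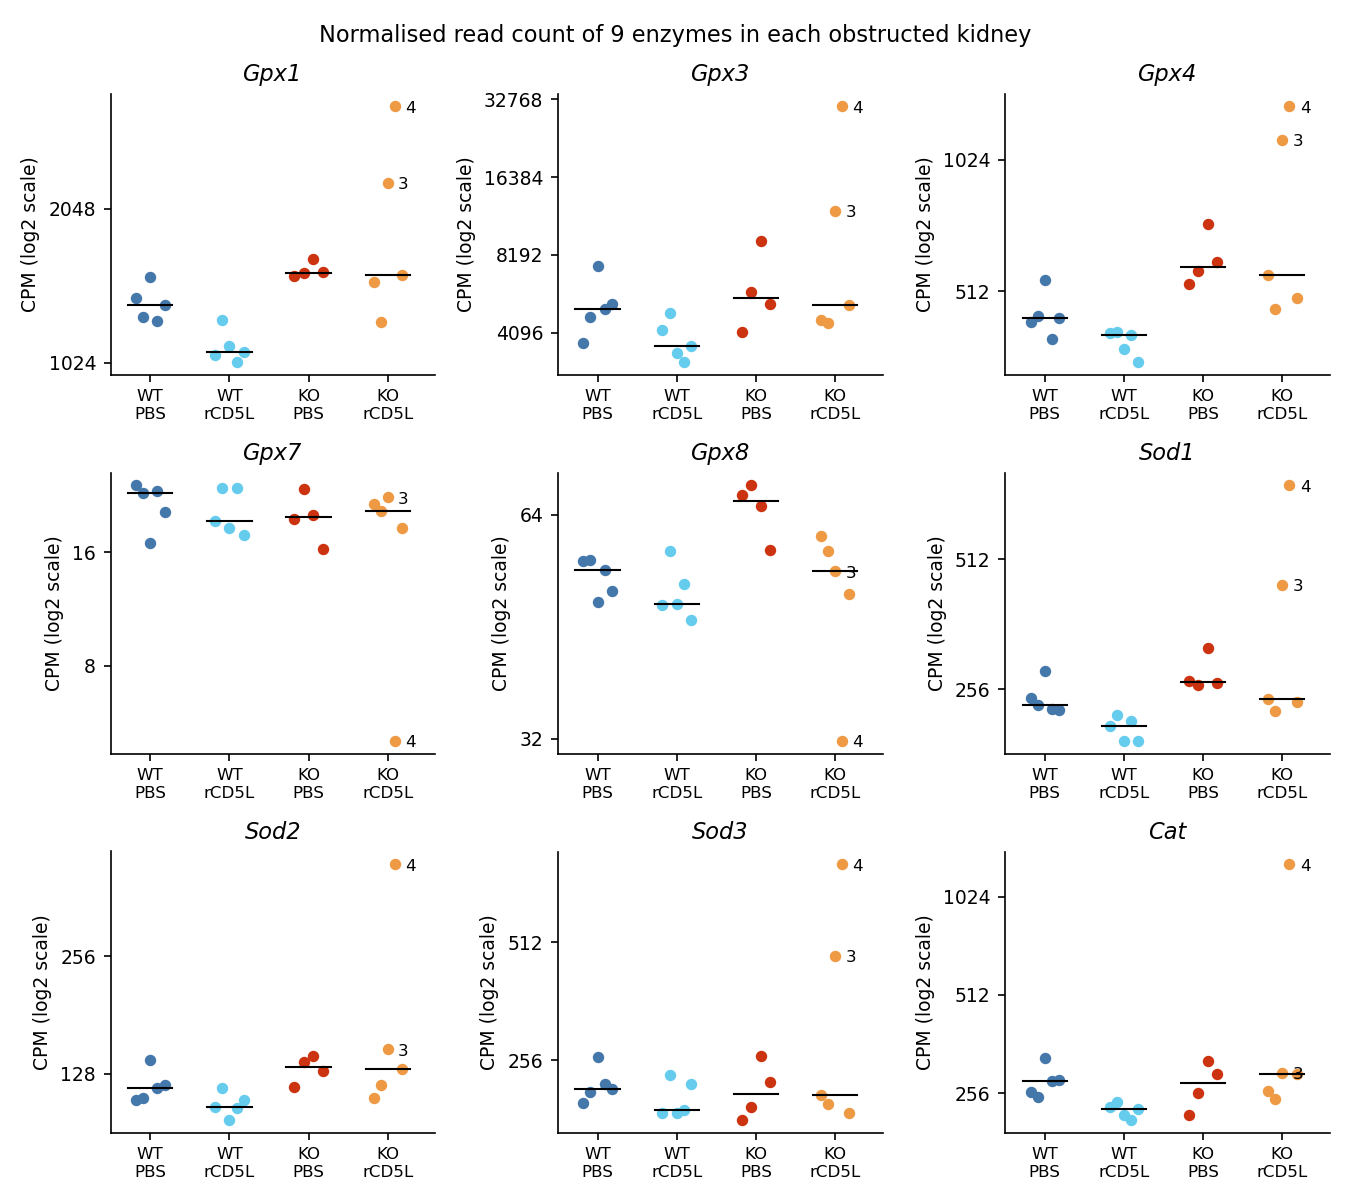
CPM (log2 axis) of 9 enzymes in each kidney by group, with the group median as a line and kidneys 3 and 4 of the CD5L KO mice given rCD5L marked by number. Gpx8 separates CD5L KO from WT mice given PBS, and kidney 4 is highest for 7 enzymes and lowest for Gpx7 and Gpx8.

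Of 56 tested genes in 6 lists that supply or surround these enzymes, 7 were called (12.5%), beside 10.5% of all genes. These calls, and those of the markers above, come from the main fit only. The length offset called 1305 genes in all and 1 fit of all 19 kidneys called 12. Whether the surrounding genes and markers were among them was not examined. The copper chaperone Atox1 was higher in CD5L KO kidneys (log2 fold change 0.30 ± 0.055, adjusted p 0.00734) and the zinc and manganese transporter Slc39a14 was lower (-0.46 ± 0.13, 0.0398), 2 of 6 genes of copper and manganese supply. Among 12 tested sources of superoxide and peroxide, Maoa, a monoamine oxidase that releases hydrogen peroxide (0.34 ± 0.072, 0.0134), and Nox4, the NADPH oxidase of tubule cells (0.36 ± 0.088, 0.0234), were higher, and Xdh, xanthine dehydrogenase (-0.35 ± 0.089, 0.0278), was lower. The Nrf2 repressor Bach1 (-0.25 ± 0.065, 0.0316) and the Nrf2 partner Mafg (-0.27 ± 0.076, 0.0450) were lower, 2 of 6 genes of Nrf2 and its regulators.

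None of the 10 genes of selenoprotein synthesis and selenium supply was called, the smallest adjusted p being 0.123 for Trnau1ap, which binds the selenocysteine tRNA. None of 8 genes of glutathione supply passed either (Gclc, -0.24 ± 0.19, 0.449), nor any of 14 peroxisomal genes (Pipox, 0.27 ± 0.082, 0.0518). All p-values of these lists are edgeR's, adjusted over all 17579 genes.

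The second comparison asked what rCD5L did in WT mice. All 9 enzymes tested lay below PBS, where 48.7% of the 17455 genes did, with a median log2 fold change of -0.20 against 0.0046 over all genes. No enzyme and no other gene tested passed the adjusted threshold in the main edgeR fit (0% called). Of the genes tested, 2797 or 16% had an unadjusted p under 0.05, 7.71% in the lower direction. Cat, Gpx1, Sod1, Gpx3, Gpx4 and Sod2 were among these.

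Cat had the smallest p. It measured 232, 241, 219, 212 and 229 CPM with rCD5L, each below the PBS kidneys at 250.2 to 329 CPM, and 1.91% of genes were separated in this direction. The log2 fold change was -0.29 ± 0.069 with an edgeR adjusted p of 0.109. Sod1, at 210.3, 223, 194, 216 and 194 CPM with rCD5L, was also below all PBS kidneys (-0.22 ± 0.064, adjusted p 0.130).

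Gpx1 measured 1063, 1241, 1103.4, 1028 and 1077 CPM with rCD5L, and 4 of these kidneys lay below every PBS kidney. Its log2 fold change was -0.27 ± 0.066, with an edgeR adjusted p of 0.110. DESeq2 called 471 genes here, 2.7% of those tested, among them Cat (0.0114), Gpx1 (0.00865) and Sod1 (0.0389). Over 18 alternatives their adjusted p-values reached 1, and without a filter on low counts edgeR called Cat (0.0424) and Gpx1 (0.0491), with 0.43% of genes called.

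Gpx3, the secreted enzyme, measured 3735, 4693, 7392, 5076 and 5304 CPM with PBS and 4184, 4865, 3406, 3153 and 3648 with rCD5L. The ranges overlapped, and the log2 fold change was -0.44 ± 0.15 (edgeR adjusted p 0.186). Gpx4 (-0.20 ± 0.075, 0.205) and Sod2 (-0.15 ± 0.068, 0.294) overlapped as well. Sod3, Gpx7 and Gpx8 were at -0.11, -0.06 and -0.06, with 95% intervals from -0.29 at the lowest to 0.18 at the highest, and the signs of Gpx7 and Gpx8 turned (both 0.01) with an offset for gene length.

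Proximal tubule markers moved with these enzymes. All 16 lay below PBS, 9 of them with an unadjusted p under 0.05 and none called, and their summed level was 4472 to 6756 CPM with rCD5L against 5210.3 to 10739 with PBS. Fibroblast and myofibroblast markers were 5 up and 5 down, and macrophage markers 6 up and 4 down. Endothelial markers were lower for 6 of 7, with an unadjusted p under 0.05 for 4 and none called, and summed to 577 to 636 CPM against 630 to 723 with PBS. All 5 erythroid markers tested lay below PBS, none called, and the list summed to 38.03 to 355 CPM (median 206) against 219 to 495 (median 347). All 6 urothelial markers were also lower, none called. The part of these markers in the lower enzyme levels was not tested. Fold changes rose with gene length in this comparison (Spearman's rho 0.240 over 17455 genes), and with the length offset Cat was at -0.27 and Gpx1 at -0.21.

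Of the surrounding genes, none was called. All 14 peroxisomal genes lay below PBS, led by Ehhadh, the bifunctional enzyme of peroxisomal fatty acid oxidation (-0.50 ± 0.13, edgeR adjusted p 0.118), and so did all 8 genes of glutathione supply, led by glutathione synthetase, Gss (-0.23 ± 0.072, 0.146). In selenoprotein synthesis 8 of 10 genes were below PBS, led by the elongation factor Eefsec (-0.30 ± 0.076, 0.117). The copper chaperone of Sod1, Ccs (-0.23 ± 0.059, 0.117), Nox4 (-0.18 ± 0.074, 0.262) and Mafk (-0.09 ± 0.056, 0.446) had the smallest p of the remaining lists.

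**Figure D3:**
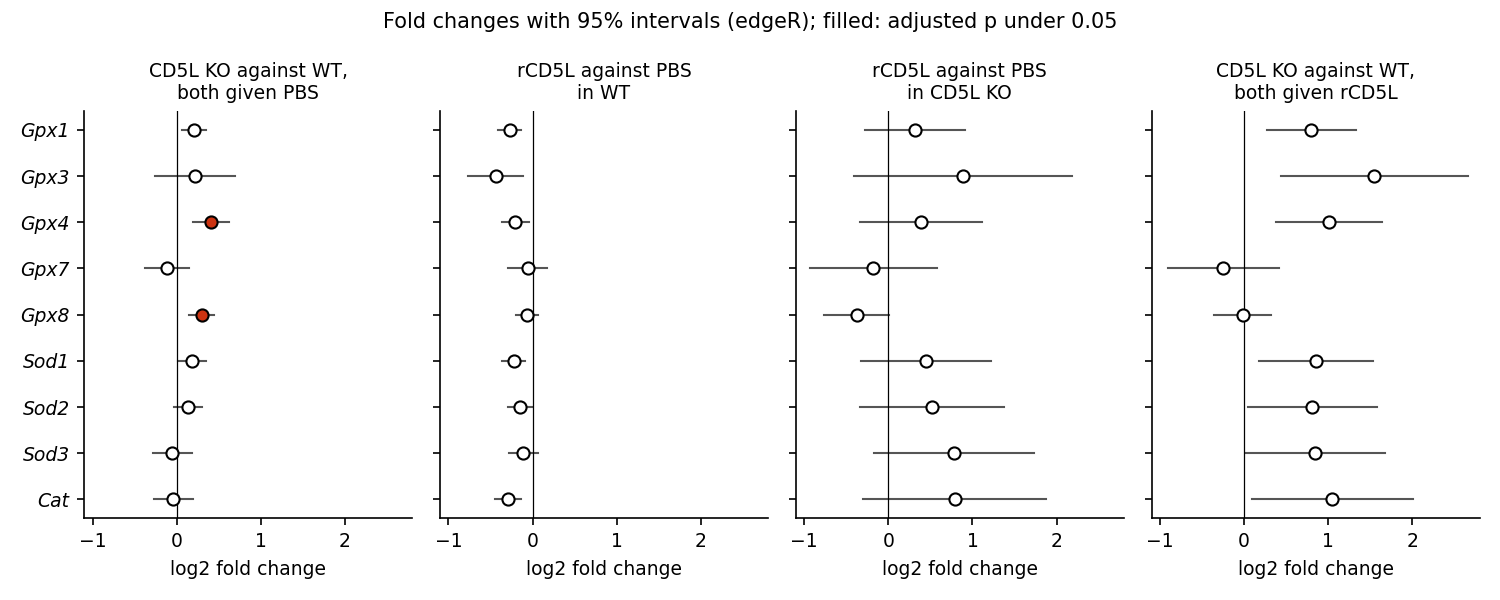
Log2 fold change (x axis) of 9 enzymes with the 95% interval from edgeR in 4 comparisons, filled where the adjusted p was under 0.05. Only Gpx4 and Gpx8 in CD5L KO against WT mice given PBS are filled, all 9 points lie left of 0 for rCD5L in WT mice, and the intervals of the comparisons with CD5L KO mice given rCD5L are wider.

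The third comparison asked what rCD5L did in mice without their own CD5L. No enzyme differed detectably, all adjusted p-values being at least 0.897 in edgeR, and neither did any other of the 17467 genes tested (0% called, 502 genes or 2.87% with an unadjusted p under 0.05, and 10 genes called by DESeq2). Of the 10 enzymes 8 lay above PBS, where 53.5% of genes did. edgeR's common biological coefficient of variation was 28.8%, against 12.6% for the genotypes given PBS and 11.6% for WT mice. It was 12.7% without kidneys 3 and 4, and again 0 of 17680 genes were called, with 1726 at an unadjusted p under 0.05.

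Kidney 4 lay far from the rest for Cat, Sod2, Gpx7 and Gpx8, and kidneys 3 and 4 both did for Gpx1, Gpx3, Gpx4, Sod1 and Sod3. Gpx3 measured 4599.6, 4478, 12119, 30834 and 5252 CPM in kidneys 1 to 5 of this group, and Cat measured 259, 247, 296, 1286 and 293. Sod3 measured 209, 199, 473, 809.7 and 188 CPM, and Sod1 242, 228, 447, 759 and 239. Kidney 4 was the highest of the 5 for each of these enzymes, and kidney 3 came next.

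Relative to the mean of kidneys 1, 2 and 5, kidney 4 held 6.46 times the Gpx3 level, 4.83 times that of Cat, 4.08 times Sod3, 3.66 times Sod2, 3.21 times Sod1, 2.68 times Gpx4 and 2.31 times Gpx1. It held 0.250 times the Gpx7 level (5.06 CPM) and 0.570 times that of Gpx8 (31.8 CPM). Kidney 3 differed from kidney 4 in which enzymes were raised. It held 2.54 times the Gpx3 level of kidneys 1, 2 and 5, 2.38 times Sod3, 2.25 times Gpx4, 1.89 times Sod1 and 1.63 times Gpx1, but 1.22 times Sod2 and 1.11 times Cat. These are ratios of single kidneys to a mean of 3 and carry no test.

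With all kidneys, the log2 fold change for rCD5L in CD5L KO mice was 0.88 ± 0.59 for Gpx3, 0.79 ± 0.49 for Cat, 0.78 ± 0.43 for Sod3 and 0.52 ± 0.39 for Sod2. Sod1 (0.45 ± 0.35), Gpx4 (0.39 ± 0.33) and Gpx1 (0.31 ± 0.27) were also above 0, Gpx7 was at -0.18 ± 0.34, and Gpx2 at 0.23 ± 0.67. Without kidney 4, Gpx3 came to 0.10, Cat to 0.0024 and Sod2 to -0.05. Without kidneys 3 and 4, left out after seeing the data, 7 of these enzymes fell below 0, among them Gpx3 (-0.36 ± 0.21), Gpx4 (-0.26 ± 0.11) and Sod1 (-0.23 ± 0.080), with edgeR adjusted p-values of at least 0.422.

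Gpx8 lay below PBS with or without these kidneys. It measured 60.0, 57.2, 53.7, 31.8 and 50.1 CPM with rCD5L against 67.9, 70.1, 65.7 and 57.4 with PBS, and 4 of 5 kidneys lay below every PBS kidney. The log2 fold change was -0.38 ± 0.17 with all kidneys (edgeR adjusted p 0.897), -0.24 without kidney 4 and -0.23 ± 0.089 without kidneys 3 and 4 (0.459). Over 18 alternatives its adjusted p ranged from 0.397 to 1.

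With all kidneys, the 16 proximal tubule markers and the 8 genes of glutathione supply all lay above PBS, as did 12 of 14 peroxisomal and 9 of 10 selenoprotein genes, with none called. Without kidneys 3 and 4 these counts were 2 of 16, 3 of 8, 4 of 14 and 5 of 10, again with none called. The proximal tubule markers summed to 6313, 5885 and 5735 CPM in kidneys 1, 2 and 5, within the range of the PBS kidneys (4954 to 10528). Without kidneys 3 and 4, all 5 erythroid markers tested (median -0.54) and all 6 urothelial markers (median -0.29) lay below PBS. All 10 macrophage markers lay above (2 of 10 with all kidneys), as did 7 of 10 fibroblast and myofibroblast and 4 of 7 endothelial markers, none called. The part of these markers in the enzyme levels was not tested. With all kidneys the smallest p of each list went to Ehhadh (1.32 ± 0.70), Ggt1, which breaks down glutathione outside the cell (1.17 ± 0.64), and Lrp2, the tubular receptor for selenoprotein P and itself a proximal tubule marker (1.25 ± 0.67). They came to -0.19, -0.25 and 0.014 without kidneys 3 and 4. Slc39a14 (0.26 ± 0.17), Maoa (-0.19 ± 0.11) and Keap1 (0.26 ± 0.15), the Nrf2 inhibitor, had the smallest p of the rest, and came to 0.12, -0.17 and 0.11 without these kidneys. The edgeR adjusted p of each was 0.897 with all kidneys and at least 0.614 without the 2.

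**Figure D4:**
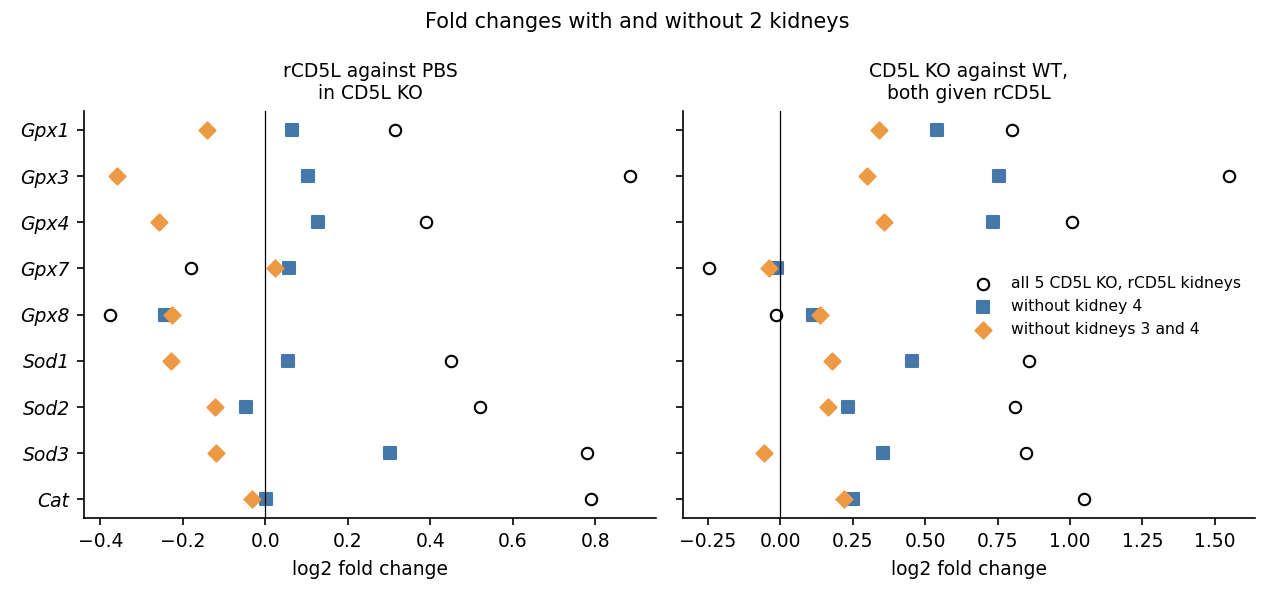
Log2 fold change (x axis) of 9 enzymes in the comparisons that use CD5L KO mice given rCD5L, with all 5 kidneys (open circles), without kidney 4 (squares) and without kidneys 3 and 4 (diamonds). For rCD5L in CD5L KO mice the diamonds of 8 enzymes lie left of 0, while for CD5L KO against WT mice given rCD5L those of Gpx1, Gpx3 and Gpx4 remain at 0.30 or more.

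The fourth comparison set CD5L KO against WT mice, both given rCD5L, and shares its groups with the comparisons above. Of 9 enzymes tested, 7 were higher with an unadjusted p under 0.05, where 11% of the 17360 genes tested were in this direction, but none passed after adjustment and neither did any other gene in edgeR (0% called, 3090 genes or 17.8% with an unadjusted p under 0.05, and 120 called by DESeq2). Gpx4, Sod1 and Cat were separated without overlap, every CD5L KO kidney being the higher, a separation that 4.63% of genes showed in this direction.

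Gpx4 measured 558, 467, 1137, 1359 and 494 CPM in CD5L KO kidneys and 411, 412, 377, 406 and 352 in WT kidneys, with a log2 fold change of 1.01 ± 0.29 (edgeR adjusted p 0.259). Gpx1 measured 1470.0, 1231, 2298, 3244 and 1519.9 CPM in CD5L KO kidneys, 4 of them above every WT kidney (0.80 ± 0.24, 0.259). Cat (1.05 ± 0.44), Sod1 (0.86 ± 0.31), Gpx3 (1.55 ± 0.51), Sod3 (0.85 ± 0.38) and Sod2 (0.81 ± 0.35) had adjusted p-values between 0.259 and 0.274. Gpx7 and Gpx8 were at -0.25 ± 0.30 and -0.02 ± 0.15.

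Without kidneys 3 and 4, Gpx4 was at 0.36 ± 0.071 (edgeR adjusted p 0.0258) and Gpx1 at 0.34 ± 0.076 (0.0345), the only enzymes called, and 3.58% of 18012 genes were called. Cat was then at 0.22 ± 0.066 (0.0818), Sod1 at 0.18 ± 0.061 (0.116) and Sod3 at -0.06. These kidneys were chosen to be left out after their values were seen. Over its 19 alternatives the adjusted p of Gpx4 ranged from 0.0258 to 0.556, and a fit of all 19 kidneys called Gpx1, Gpx3, Gpx4 and Sod1, where it called 7% of genes. Fold changes fell with gene length here too (Spearman's rho -0.276).

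With all kidneys, the 14 peroxisomal and 8 glutathione supply genes all lay above WT, and so did 16 of 16 proximal tubule markers, 13 with an unadjusted p under 0.05 and none called. Without kidneys 3 and 4 these counts were 11 of 14, 7 of 8 and 12 of 16, and the proximal tubule sums of the other 3 kidneys (5735 to 6313 CPM) lay within the WT range (4472 to 6756). Of the 16 markers 3 then had an unadjusted p under 0.05, and Miox was called (0.59 ± 0.14, edgeR adjusted p 0.0446). Ehhadh (1.95 ± 0.62), Ggt1 (1.56 ± 0.55), Cyba, the p22phox subunit of NADPH oxidases (0.64 ± 0.23), Trnau1ap (0.53 ± 0.14), Atox1 (0.40 ± 0.12) and Bach1 (-0.31 ± 0.10) had the smallest p of their lists, each with an edgeR adjusted p of 0.259. Without kidneys 3 and 4, Ehhadh (0.43 ± 0.084, adjusted p 0.0239), Pipox (0.36 ± 0.077, 0.0312), Nox4 (0.33 ± 0.076, 0.0392) and Trnau1ap (0.28 ± 0.066, 0.0420) were called in edgeR among the surrounding genes, while Ggt1 (0.13), Cyba (0.17), Atox1 (0.27) and Bach1 (-0.18) were not.

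Other markers moved in the same comparison. With all kidneys, 10 of 10 fibroblast and myofibroblast, 10 of 10 macrophage and 6 of 7 endothelial markers were below WT and 6 of 6 urothelial markers above, none called. When kidneys 3 and 4 were left out, 9 of 10 fibroblast and myofibroblast markers were below WT, with Pdgfra (-0.55 ± 0.077, edgeR adjusted p 0.0100) and Col3a1 (-0.76 ± 0.14, 0.0209) called. Of the 7 endothelial markers 6 were then lower, with Cdh5 (-0.30), Kdr (-0.32) and Flt1 (-0.38) called. Slc12a1 was called lower among 9 distal nephron markers (-0.54), while urothelial markers were higher for 6 of 6 (median 0.68) and macrophage markers for 4 of 10, none called. The part of these markers in the levels of Gpx4, Gpx1 and the other enzymes was not tested.

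The interaction asked whether rCD5L acted differently in the 2 genotypes, with all 19 kidneys in the fit. Of 18454 genes tested none was called (0%, with 1154 genes or 6.25% at an unadjusted p under 0.05, and 0 called by DESeq2), and no enzyme passed (lowest edgeR adjusted p 0.731, that of Gpx1, Gpx3, Gpx4, Sod1, Sod3 and Cat). Gpx3 (1.34 ± 0.62), Cat (1.10 ± 0.50) and Gpx1 (0.61 ± 0.27) had an unadjusted p under 0.05, and Gpx8 (-0.30 ± 0.18) pointed the other way. Sod3 was at 0.91 ± 0.44, Sod1 at 0.70 ± 0.36, Sod2 at 0.69 ± 0.40, Gpx4 at 0.62 ± 0.34, Gpx7 at -0.11 ± 0.36 and Gpx2 at 1.11 ± 0.94. The median over the 9 enzymes other than Gpx2 was 0.69 with all kidneys, 0.29 without kidney 4 and 0.033 without kidneys 3 and 4. In the surrounding lists, Ehhadh (1.85 ± 0.72), Ggt1 (1.54 ± 0.66), Eefsec (0.65 ± 0.27), Ccs (0.62 ± 0.29), Cyba (0.48 ± 0.26) and Keap1 (0.31 ± 0.16) had the smallest p, none called. They came to 0.32, 0.098, 0.22, 0.10, -0.0011 and 0.13 without kidneys 3 and 4, again none called.

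Across the 19 kidneys, the enzymes were set against the mean log2 CPM of cell type markers. Among 30 relations (10 enzymes, 3 marker lists), 27 passed in Pearson's correlation and 16 in Spearman's. In Pearson's 9 passed once the 2 kidneys farthest from the median marker level were left out. That step also narrows the range of marker levels and the number of kidneys. With group means subtracted and all kidneys kept, 20 passed: 7 with proximal tubule, 3 with fibroblast and myofibroblast and all 10 with macrophage markers. Of 9 relations with fibroblast and myofibroblast markers 1 was left, that of Gpx7, and of 9 with macrophage markers 1 was left, that of Cat (r of -0.629, adjusted permutation p 0.0321). With group means subtracted and its 2 farthest kidneys left out, r with macrophage markers was -0.886 for Cat, -0.755 for Sod2, -0.680 for Gpx3 and 0.761 for Gpx7, values given without a test. For the proximal tubule, 7 of 9 were left, all positive: Cat, Gpx3, Sod2, Sod3, Gpx4, Sod1 and Gpx1.

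Cat had the highest Pearson's r with the proximal tubule markers and Gpx3 the highest Spearman's rho. Cat had Pearson's r of 0.981 (permutation p 1e-05, the smallest that 100000 permutations can give, adjusted 0.0001) and Spearman's rho of 0.865 (permutation p 3e-05, adjusted 0.00045). Without the 2 farthest kidneys (kidney 4 of the CD5L KO mice with rCD5L, kidney 3 of WT with PBS), r was 0.853 (adjusted permutation p 0.00045). Gpx3 had an r of 0.928 and a rho of 0.917 (both permutation p 1e-05, adjusted 0.0001 and 0.0003), and an r of 0.841 without these kidneys. Within groups, with group means subtracted, r was 0.978 for Cat and 0.925 for Gpx3.

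Gpx7 and Gpx8 behaved otherwise. Gpx7 rose with fibroblast and myofibroblast markers, with an r of 0.878 (permutation p 0.0002, adjusted 0.0009), a rho of 0.654 (permutation p 0.00318, adjusted 0.0121) and an r of 0.603 without kidneys 4 and 5 of the CD5L KO mice given rCD5L (adjusted permutation p 0.0421). It also rose with macrophage markers, with an r of 0.914 (adjusted permutation p 0.00471), and of 0.5285 without the 2 farthest kidneys (0.0763). The r of Gpx7 with proximal tubule markers was -0.876 with all kidneys and 0.0604 without the 2 farthest, and within groups it was -0.885 and -0.497. Gpx8 had an r of 0.531 with fibroblast and myofibroblast markers and of -0.270 without the 2 farthest, and within groups it was 0.879 and 0.713.

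**Figure D5:**
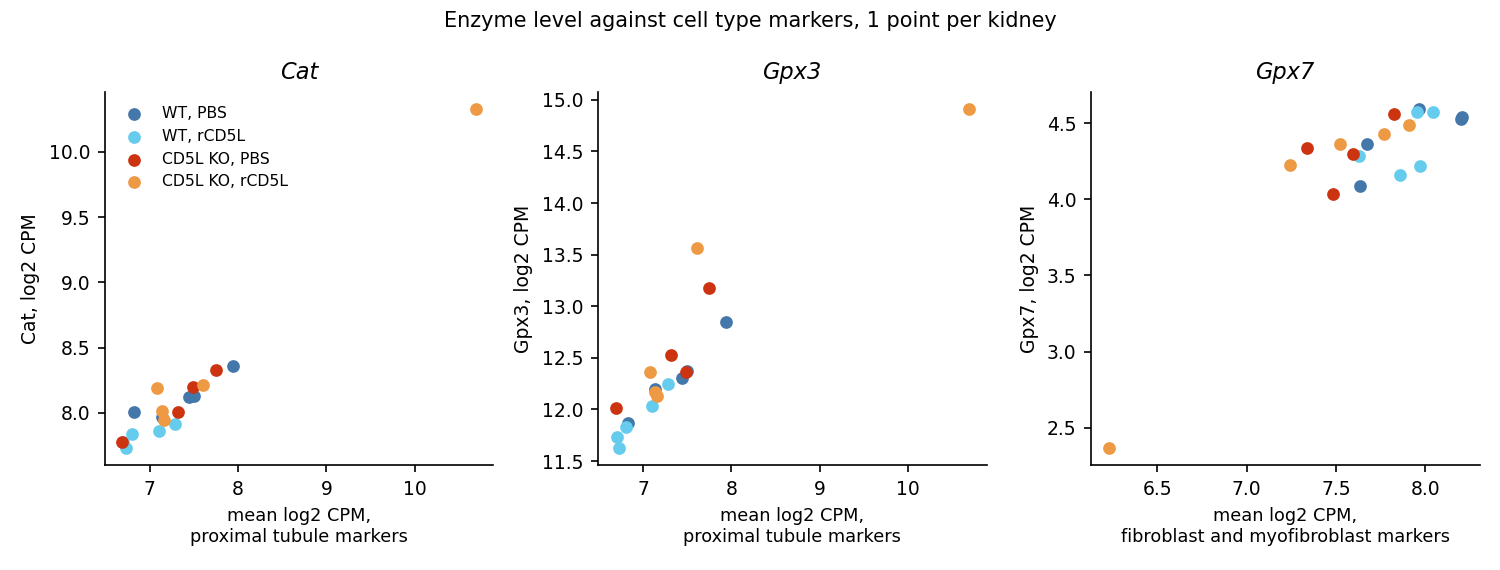
Log2 CPM of Cat, Gpx3 and Gpx7 (y axes) against the mean log2 CPM of proximal tubule or fibroblast and myofibroblast markers (x axes), 1 point per kidney, coloured by group. Cat and Gpx3 climb with the proximal tubule markers among the kidneys at the lower left, and kidney 4 of the CD5L KO mice given rCD5L lies alone at the far corner of each panel.

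The genes most like each enzyme over the 19 kidneys were named by Pearson's r of log2 CPM among 14323 genes, as a description in which the points share the outlying kidney 4. Cat was most like Aass, Pbld1 and Bpnt1 (r of 0.990, 0.986 and 0.986, and 0.936, 0.894 and 0.880 without kidney 4). Among the genes most like Gpx3 were the peroxiredoxin Prdx5 and Selenbp1 (0.985 and 0.983, and 0.963 and 0.976 without kidney 4). Gpx4 was most like its copy Gpx4-ps2, Bsg and Chchd2 (0.990, 0.988 and 0.988, and 0.983, 0.9795 and 0.990 without kidney 4).

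Sod1 was most like Cox6a1, Uqcrq and Cyc1 (r of 0.991, 0.989 and 0.987, and 0.985, 0.974 and 0.9635 without kidney 4). Without that kidney the 3 most alike were Cox6a1, Psmb5 (0.984) and Ninj1 (0.974). Gpx1 was most like Tmem205, Park7 and Cox5b (0.986, 0.985 and 0.982, and 0.9748, 0.970 and 0.9615 without kidney 4). Sod2 was most like Pepd, Lrpap1 and Cisd1 (0.994, 0.989 and 0.988, and 0.966, 0.908 and 0.936 without kidney 4) and Sod3 like Tmbim6, Akr7a5 and Agpat3 (0.9875, 0.983 and 0.983, and 0.964, 0.950 and 0.948 without kidney 4). Gpx8 was most like Fkbp7, Tmsb4x and Clec2d (0.934, 0.9315 and 0.929, and 0.8505, 0.8495 and 0.856 without kidney 4). When that kidney was left out its 3 most alike were Sdhaf4 (0.9335, against -0.14 with all kidneys), Rps4x (0.922) and Calm2 (0.917). The likeness of Gpx7 to Arpc1b, Fxyd6 and Rab31 (0.965, 0.964 and 0.962) came to 0.666, 0.687 and 0.685 without kidney 4, where Des (0.835), Ndrg4 (0.8265) and Cnn2 (0.796) came first. Over the same 18 kidneys Abcc2 (0.946), Aass and Hgd (0.929) came first for Cat, Tmem205, Park7 and Cd63 (0.967) for Gpx1, Pepd, Guca2b (0.9495) and Slc25a5 (0.938) for Sod2, and Slc3a2 (0.972), Tmbim6 and Tomm40 (0.952) for Sod3.

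Among the enzymes themselves, Gpx4 and Sod1 were most alike once kidney 4 was left out. Without it, r between Gpx4 and Sod1 was 0.968, between Gpx1 and Gpx4 0.936, between Gpx1 and Sod1 0.936 and between Gpx3 and Sod2 0.900. Between Gpx7 and Cat it was -0.246, against -0.913 with kidney 4, and between Gpx7 and Gpx8 it was 0.342 against 0.769. These are correlations over 18 kidneys pooled over the groups, so differences between groups enter them, and they are given without a test.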

How the data were processed

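Bulk RNA-seq was analysed in 19 obstructed kidneys, grouped by the sample labels. The authors deposited raw counts for each gene and FPKM values, made from random-primed paired-end libraries with Trimmomatic, HISAT2 (GRCm38) and featureCounts. Tool versions, strand setting and handling of multi-mapped reads are not given in the sources used here. FPKM divides by the gene length of the table and was used only to compare levels between genes. The quasi-likelihood test of edgeR 4.0.16 (R 4.3.3) was run on the counts after TMM scaling and filterByExpr with a minimum count of 10, with 2 groups per fit and all 4 for the interaction, Benjamini-Hochberg adjustment over all genes tested and calls at an adjusted p under 0.05. CPM values used TMM factors, and log2 CPM a prior count of 2. The numbers of genes called and the fold changes and calls of the 10 enzymes were recomputed in other settings. These were DESeq2 1.42.0, RLE factors, no filter, every kidney in a single model, a replicate block and an offset for gene length (lowess, span 0.3). Block and offset were also used together, and each kidney was left out. Fits of the surrounding genes and markers were repeated only without kidneys 3 and 4 of the CD5L KO mice given rCD5L. Adding the counts of near-identical copies, leaving out kidneys 3 and 4, and the principal transcript length were chosen after seeing the data. Marker correlations used SciPy 1.17.1 and 100000 permutations. The scripts were tested on simulated data.

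The members and lists were chosen with earlier results of these data known, so no p-value over a list is given. Named were all 10 enzymes, up to 3 called genes of each surrounding list or the one with the smallest p, and the 3 genes most like each enzyme, of which 1 is not reported here. The labels do not tie replicate numbers to a litter or day, and p-values measure the spread between these kidneys, each from its own mouse. Limits for counts of 0 cover counting error only. Total counts per kidney were 17917491 to 23847090. Columns of kidneys without a sample numbered 0. Codon windows were read from GRCm38 and its GENCODE annotation.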

Additional observations from a re-analysis of the deposited data

Results flagged for a closer look

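Of 40 groups of kidneys tested for a lone outlying value (10 enzymes in 4 groups), 6 held one. The 10 enzymes were measured in the same kidneys, so the 40 are not independent and no number expected by chance is given. Of the 6, 4 were kidney 4 of the CD5L KO mice given rCD5L. In that kidney Gpx3 was at 30834 CPM (next highest kidney 12119), Sod2 at 442 (148), Cat at 1286 (296) and Gpx7 at 5.06 (next lowest 18.6). Its gap took up 0.710 of the range of the group for Gpx3, just past the cutoff, 0.782 for Gpx7, 0.889 for Sod2 and 0.952 for Cat. The summed proximal tubule markers of the same kidney were 71805 CPM. The other 2 flags were for Sod1, in kidney 3 of the WT mice given PBS (282 CPM, next 244) and kidney 3 of the CD5L KO mice given PBS (318 CPM, next 267).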

How the results depend on the processing

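With CD5L KO against WT mice given PBS, 1850 genes and 2 enzymes were called. One fit of all 19 kidneys called 12 genes and 0 enzymes, the gene length offset 0 enzymes, and leaving out 1 kidney gave 1015 to 2062 genes and 1 to 4 enzymes. The main fits did not pair the kidneys by replicate number, which the labels do not tie to a litter or day. In no comparison did every same-numbered pair's deviations correlate above 0.1. Pairs with different numbers were not compared, so this cannot exclude a shared block. The correlations ran from -0.0491 to 0.117 here, from 0.0165 to 0.174 for rCD5L in CD5L KO mice (3 of 4 above 0.1), from -0.0478 to 7.6e-06 for rCD5L in WT mice and from -0.187 to -0.00179 for CD5L KO against WT mice given rCD5L. With the numbers as a replicate block, 2132 genes and 4 enzymes were called (Gpx1 and Gpx3 added, adjusted p 0.0303 and 0.0354), 1 enzyme with the block and the length offset together, and Gpx2 came to -0.16 and -0.18. The block alone changed no other call of an enzyme. For rCD5L in WT mice, where edgeR called 0 genes, DESeq2 called 471 genes and 3 enzymes, edgeR without the filter 137 genes and 2 enzymes, and leaving out 1 kidney 0 to 39 genes. For rCD5L in CD5L KO mice DESeq2 called 10 genes. For CD5L KO against WT mice given rCD5L, DESeq2 called 120 genes, the fit of all 19 kidneys 1291 genes and 4 enzymes, the fit without kidneys 3 and 4 644 genes and 2 enzymes, and leaving out 1 kidney 0 to 1 genes.

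The median log2 fold change of the 9 enzymes other than Gpx2, without kidneys 3 and 4, was -0.14 for rCD5L in CD5L KO mice, 0.18 for CD5L KO against WT mice given rCD5L and 0.033 for the interaction, whose median ran from 0.29 to 0.82 as 1 kidney was left out. Signs turned without kidneys 3 and 4 for rCD5L in CD5L KO mice in Gpx1 (-0.14), Gpx3 (-0.36), Gpx4 (-0.26), Gpx7 (0.023), Sod1 (-0.23), Sod2 (-0.12), Sod3 (-0.12) and Cat (-0.033), for CD5L KO against WT mice given rCD5L in Gpx8 (0.14) and Sod3 (-0.057), and for the interaction in Gpx4 (-0.049), Gpx7 (0.083), Sod1 (-8.2e-05) and Sod3 (-0.0053). For rCD5L in WT mice Gpx7 came to 0.0089 and Gpx8 to 0.010 with the length offset, and to 0.013 and 0.011 with the block added. Gpx8 in CD5L KO against WT mice given rCD5L came to 0.0013 in DESeq2, 0.00059 with RLE factors and 0.0068 in the fit of all kidneys. The cause of these turns was not tested.

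Leaving out 1 kidney turned signs within these ranges: given PBS, Gpx2 -0.37 to 0.61, Gpx3 -0.040 to 0.38, Sod3 -0.15 to 0.027 and Cat -0.12 to 0.049; for rCD5L in CD5L KO mice, Gpx2 -0.16 to 0.80, Gpx7 -0.27 to 0.056 and Sod2 -0.047 to 0.66; given rCD5L, Gpx8 -0.079 to 0.11; for the interaction, Gpx7 -0.20 to 0.11.

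Of the 27 marker correlations called, 16 were called with Spearman's rho and 9 without the 2 farthest kidneys. Without those, r turned for Gpx7 (0.0604) and Gpx8 (0.275) with proximal tubule markers and for Gpx8 (-0.270) and Sod3 (0.00641) with fibroblast markers. Spearman's rho had the other sign for Gpx8 with proximal tubule markers (0.0158) and Gpx2 with fibroblast markers (-0.00175). The principal transcript length moved the level of Gpx1 to 1029, Gpx2 to 0.275, Gpx4 to 390, Sod1 to 313 and Sod2 to 16.7 FPKM in WT mice given PBS. The depth limits Gpx2, at 18 counts or fewer per kidney.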

Other observations

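The peroxidase genes that the choice of members left out were also counted. Gpx5, the epididymal form, measured 4.03 to 11.0 CPM in WT mice given PBS and 6.24 to 14.4 CPM in WT mice given rCD5L, which overlapped. In CD5L KO mice it measured 2.66 to 7.95 CPM with PBS and 9.70 to 24.3 CPM with rCD5L. Epididymal markers of a fixed list summed in CD5L KO mice to 13.7 to 36.5 CPM with rCD5L against 5.59 to 15.0 CPM with PBS. In WT mice they summed to 9.63 to 25.6 CPM with rCD5L against 7.51 to 13.4 CPM with PBS. Gpx6 measured 0.486 to 7.64 CPM in 18 kidneys and 39.2 CPM in kidney 4 of the CD5L KO mice given rCD5L. No test result is given here for either gene.

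The bases TGACNNNGC, the core of the antioxidant response element to which Nrf2 binds, were searched on both strands from 250 bases before to 50 bases after gene starts (RefSeq windows). They were found in 1 of 12 windows of 9 enzymes, at Sod1, and in 12.4% of 32851 windows of all genes. A match is a description, not a bound site.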
